A study of Mus musculus with 6 samples.

Results

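The 10 genes described here mark monocytes and macrophages: the transcription factors Spi1 and Cebpb, the receptors Csf1r, Cd14 and Fcgr3, the surface proteins Adgre1 and Ly6c2, and the phagocyte products Lyz2, Cd68 and Mpeg1. They were taken by gene symbol from a table of 54532 genes, and all 10 were found. The rule uses no measured value, but the genes were chosen with earlier results of these data known. In the 3 Phf6 knockout libraries all 10 had low RNA, and 9 of the 10 were lower in each knockout library than in every wild-type library. The same separation was seen for 18.1% of all genes with any read. Lyz2 was 264-fold, Spi1 213-fold, Cd14 182-fold and Fcgr3 124-fold lower by the ratio of group means, while Cd68 was 3.97-fold lower with overlapping groups. With WT 2, a library that stands apart, left out, these ratios were 120.0, 108, 141, 57.3 and 2.23. The knockout values of Spi1, Cd14 and Fcgr3 rested on at most 19 reads per library. The deposited level of Ly6c2 spread 1.39-fold over the 3 wild-type libraries, against at least 4.14-fold for the other 9, but rescaled to TPM it spread 2.30-fold, more than Cebpb (2.08-fold).

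Monocytes and macrophages are phagocytes of the myeloid lineage, made in the bone marrow from precursors shared with neutrophils. The factor PU.1, encoded by Spi1, acts with the C/EBP factors to switch on myeloid genes, and the receptor for macrophage colony-stimulating factor, encoded by Csf1r, keeps monocytes and macrophages alive. Several genes of the set are not restricted to these cells. Spi1, Cebpb, Lyz2 and Fcgr3 are also used by neutrophils, Spi1 by B cells, and Ly6C proteins are also carried by some T cells. In mouse marrow, monocytes high in Ly6C leave for the blood, while resident macrophages stay and carry F4/80.

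RNA came from bone marrow (BM) of C57BL/6 mice at day 100 after transplantation, with 3 libraries labelled Phf6 wild type (WT 1 to WT 3) and 3 labelled Phf6 knockout (KO 1 to KO 3). By the study's methods, both groups modelled T-cell acute lymphoblastic leukemia by means of the activated kinase mutant JAK3 M511I on a retrovirus that also encodes GFP, in lineage-negative (Lin-) marrow cells of male donors that were given to lethally irradiated male recipients. WT donors were Phf6 fl/y, and KO donors were Vav1-Cre;Phf6 fl/y, in which Cre is made throughout the blood-forming system. The labels give the tissue as BM and name no sort of GFP+ cells before RNA was extracted, so cells without the virus and blood cells left in the host may contribute. The paper calls the profiled material leukemia cells, and its follow-up of single genes used GFP+ leukemia cells. For primary recipients it reports a larger GFP+ share of marrow in KO than in WT. Among GFP+ marrow cells the myeloid share was also higher in KO, as were neutrophil counts in blood. After secondary transplantation the KO leukemia cells were mainly lymphoid. Those are cell measures at other times than day 100, and how they relate to the RNA was not tested. The genotype labels carry a final digit that rises from library to library; the design text names Phf6, and all were read as Phf6. Whether each library came from a separate mouse is not stated, so p-values measure the spread between these libraries.

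Values are FPKM, fragments scaled to gene length and to library size as deposited, so levels of different genes can be set side by side. The libraries held 13015823 to 18235095 fragments assigned to genes, called reads here. WT 2 stood apart: its FPKM summed to 897352 against 244936 to 329893 in the other 5 libraries, and ribosomal protein genes took 24.9% of its reads against 5.76% to 7.89%. Its correlation with the other WT libraries was 0.746 and 0.779 on the log scale, against 0.948 between WT 1 and WT 3 and 0.963 to 0.973 among the KO libraries. The change of each member tested is therefore also given without WT 2. Phf6 itself ranged from 3.67 to 8.02 FPKM in WT and from 5.11 to 6.73 FPKM in KO, and because the sum over the whole gene includes exons outside the deletion it does not check the labels. The T cell marker Cd3e had 42.7, 22.6 and 60.0 FPKM in WT 1, WT 2 and WT 3 and 56.8, 44.5 and 53.7 FPKM in KO 1, KO 2 and KO 3, with overlapping groups (log2 fold change 0.40, limma adjusted p = 0.505).

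Sequence upstream of 5 genes is shown for 2 reasons. Ly6c2 and Lyz2 each have a close copy beside them in the genome, Ly6c1 and Lyz1, of which Ly6c1 was higher in KO and Lyz1 was scarce in all libraries, and Cd68 was the gene of the set that changed least. Bases are from RefSeq promoters on build GRCm38.p6, all on the minus strand and upstream of the RefSeq start; the base before the start is -1. In GENCODE M21, 2 bases of the Lyz2 window fall in an exon, and none of the other windows does. For Ly6c2, chr15:75112032-75112111, capitals mark GAGGAAGT, a core letter string of PU.1 sites, at -108 to -101. For Ly6c1, chr15:75048873-75048944, capitals run from the first to the last base that aligns with it. They include bases with no partner in Ly6c2, and 5 of the 8 aligned bases are identical.
Ly6c2: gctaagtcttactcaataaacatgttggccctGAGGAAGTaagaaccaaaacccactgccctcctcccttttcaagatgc
Ly6c1: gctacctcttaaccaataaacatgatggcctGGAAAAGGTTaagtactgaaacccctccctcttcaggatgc
For Lyz2, chr10:117282320-117282399, capitals mark TTNNGNAA, a loose C/EBP letter string, at -55 to -48. For Lyz1, chr10:117292916-117292995, they mark the aligned bases, which do not match the string, although Lyz1 has a match further upstream, at -209 to -202.
Lyz2: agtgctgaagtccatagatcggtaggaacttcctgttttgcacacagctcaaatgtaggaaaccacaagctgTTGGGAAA
Lyz1: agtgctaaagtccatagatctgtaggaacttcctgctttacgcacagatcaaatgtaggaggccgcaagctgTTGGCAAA
For Cd68, chr11:69666351-69666410, capitals mark GAGGAA at -225 to -220, the shorter form of the PU.1 string.
Cd68: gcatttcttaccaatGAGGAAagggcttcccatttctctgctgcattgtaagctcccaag

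In the aligned upstream bases, Ly6c2 and Ly6c1 were identical at 171 of 212 positions (80.7%) and Lyz2 and Lyz1 at 187 of 212 (88.2%). Promoter windows of 300 bases were in the table for 6 of the 10 genes: Lyz2, Cd68, Ly6c2, Fcgr3, Cebpb and Mpeg1. Searched on both strands, GAGGAAGT was in 1 of these 6 windows (Ly6c2) and in 3.28% of all 27025 windows. The shorter GAGGAA, which every GAGGAAGT also contains, was in 3 of 6 (Cd68, Ly6c2, Fcgr3) and in 28.3% of all. TTNNGNAA was in 5 of 6, all but Cebpb, and in 40.7% of all, and the stricter TTGCNNCAA was in 0 of 6 and in 2.12% of all. Ly6c2 held a second GAGGAAGT at +27 to +34, and Ly6c1 held GAGGAA on the other strand at -158 to -153. These are matches of letters and say nothing of binding.

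**Figure D1:**
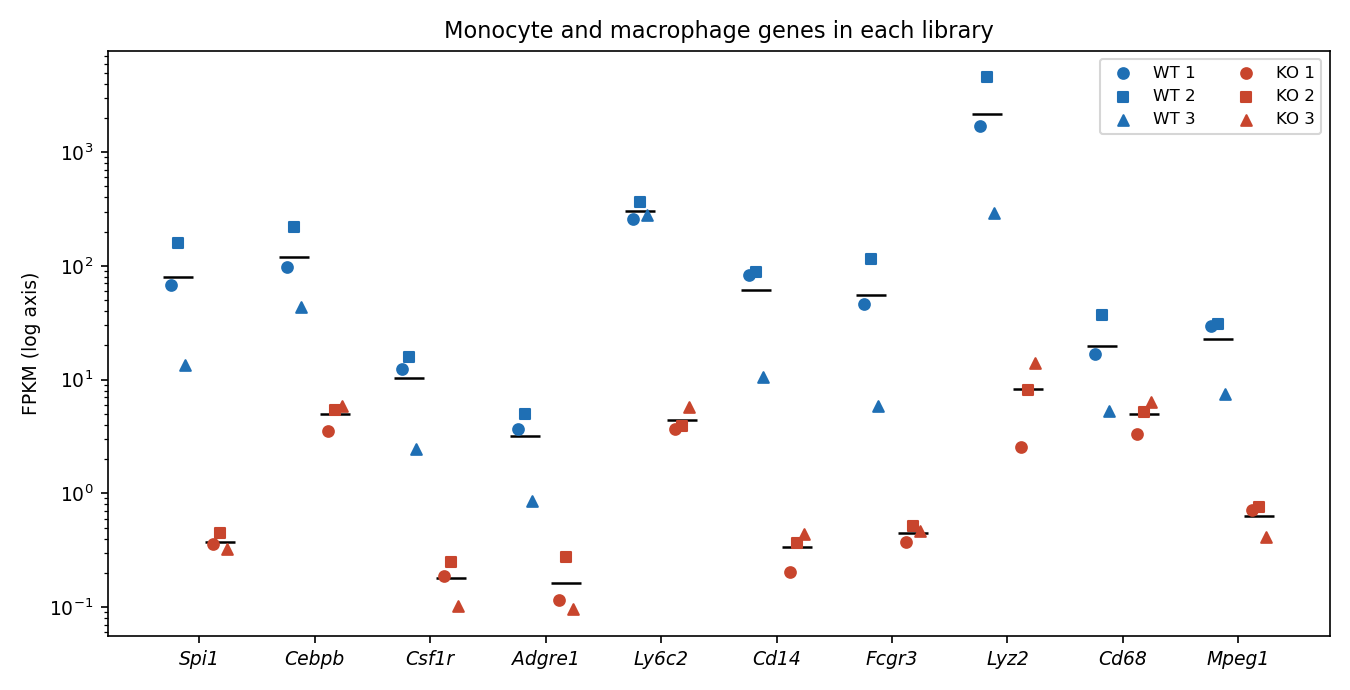
FPKM of the 10 genes (log axis) in each library, blue for WT and red for KO, with the marker shape giving the replicate number and the bar the group mean. Every blue point lies above every red one except for Cd68, where WT 3 (5.29 FPKM) sits below KO 3 (6.33 FPKM).

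Spi1 (ENSMUSG00000002111, chr2:91082390-91115756 on GRCm38, as for all genes below, plus strand) encodes PU.1, without which the marrow makes no macrophages. Its level was 67.7, 159 and 13.3 FPKM in WT 1, WT 2 and WT 3 and 0.359, 0.448 and 0.323 FPKM in KO 1, KO 2 and KO 3. The lowest WT library was thus far above the highest KO library, and the KO values rested on 14 to 19 reads. The mean was 80.2 ± 73.9 FPKM in WT and 0.376 ± 0.0644 FPKM in KO (SD, n = 3 each), and KO minus WT came to -5.30 ± 0.83 (log2 fold change ± SE, as for the genes below, limma on log2(FPKM + 1), adjusted p = 0.00511). It was -4.51 without WT 2 and -6.26 without WT 3.

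Cebpb (ENSMUSG00000056501, chr2:167688915-167690418, plus strand) encodes C/EBPβ, a factor of monocyte survival and of emergency granulocyte production. Its level was 97.1, 219 and 43.4 FPKM in the 3 WT libraries and 3.53, 5.36 and 5.91 FPKM in the 3 KO libraries. Both groups kept clear RNA, with at least 99 reads in every KO library, and they did not overlap. KO differed from WT by -4.08 ± 0.58 on the log2 scale (adjusted p = 0.00365), and it was -3.50 without WT 2. Of the 1504 exon bases of Cebpb, 312 are shared with Tmem189 on the other strand. The library kit does not mark strand, so reads there cannot be told apart, and Tmem189 lay between 12.9 and 19.5 FPKM in all 6 libraries.

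Csf1r (ENSMUSG00000024621) encodes the receptor for macrophage colony-stimulating factor and is a defining gene of the lineage. It had 12.3, 15.9 and 2.46 FPKM in WT 1, WT 2 and WT 3 and 0.187, 0.247 and 0.102 FPKM in KO 1, KO 2 and KO 3. All KO libraries were below WT 3, the lowest WT library, with 8 to 19 reads each. This gave a log2 fold change of -2.97 ± 0.59 (adjusted p = 0.0127), and of -2.52 without WT 2. The size of the change hardly moved when any 1 KO library was left out, but the adjusted p then came to 0.0528 to 0.057 (0.00015 to 0.057 over all 17 alternatives). Csf1r shares 873 of 5774 exon bases with Hmgxb3 on the opposite strand, which had 0.65 FPKM in WT 2 and 8.78 to 10.5 FPKM in the other libraries.

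Adgre1 (ENSMUSG00000004730, chr17:57358691-57483527, plus strand) encodes F4/80, the classical surface marker of mouse macrophages. It was the lowest of the 10 genes in every WT library, with 3.70, 5.02 and 0.857 FPKM in WT 1, WT 2 and WT 3. The KO libraries had 0.116, 0.275 and 0.0959 FPKM, from 5 to 14 reads. Groups did not overlap, yet Adgre1 reached 1 FPKM in only 2 libraries and so was not among the 13393 genes tested. In a fit of all 28116 genes with any read, the log2 fold change was -1.69 with a 95% interval of -2.86 to -0.52 and did not pass the test (adjusted p = 0.0747).

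Ly6c2 (ENSMUSG00000022584, chr15:75108158-75111970, minus strand) encodes a Ly6C surface protein that is high on inflammatory monocytes. Its level was 260.2, 361 and 282 FPKM in WT 1, WT 2 and WT 3 and 3.70, 3.89 and 5.69 FPKM in KO 1, KO 2 and KO 3. In FPKM both groups were tight and far apart, while in TPM the WT libraries had 789, 402 and 923. The means were 301 ± 52.8 and 4.43 ± 1.10 FPKM (SD, n = 3 each), a 68.0-fold difference, and the log2 fold change was -5.80 ± 0.27 (adjusted p = 0.000233). This was the smallest standard error among the 9 genes tested, but after rescaling to TPM that of Cebpb was smaller (0.400 against 0.407). The fold change of Ly6c2 was -5.67 without WT 2 and -5.84 without WT 3.

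The neighbouring copy Ly6c1 went the other way. It had 1.55, 1.17 and 0.346 FPKM in WT 1, WT 2 and WT 3 and 5.95, 9.58 and 13.2 FPKM in KO 1, KO 2 and KO 3 (log2 fold change 2.38, standard error 0.38, adjusted p = 0.00548). Ly6c2 therefore exceeded Ly6c1 in every WT library, and Ly6c1 exceeded Ly6c2 in every KO library. Of the 2737 stretches of 100 bases in Ly6c2 transcripts, 159 (5.81%) are also in Ly6c1, so most fragments can be assigned to 1 of the pair.

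Cd14 (ENSMUSG00000051439) encodes the receptor that hands bacterial lipopolysaccharide to Tlr4. WT 1, WT 2 and WT 3 had 83.8, 88.1 and 10.5 FPKM, and KO 1, KO 2 and KO 3 had 0.205, 0.364 and 0.435 FPKM from 6 to 11 reads. In FPKM WT 1 and WT 2 were alike and WT 3 was 8.01-fold below WT 1, still well above the KO libraries. In TPM WT 1 had 254 and WT 2 had 98.2. On the log2 scale KO was below WT, at -5.06 ± 0.79 (adjusted p = 0.0052). It was -4.55 without WT 2 and -6.03 without WT 3.

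Fcgr3 (ENSMUSG00000059498, chr1:171051174-171064935, minus strand) encodes a low-affinity receptor for the Fc part of IgG, through which monocytes, macrophages and neutrophils take up coated particles. Its level was 45.7, 116 and 5.80 FPKM in WT 1, WT 2 and WT 3 and 0.371, 0.512 and 0.465 FPKM in KO 1, KO 2 and KO 3. It had the widest spread of the set among WT libraries, 20.0-fold from lowest to highest, and a narrow one in KO from 12 to 14 reads. Its log2 fold change came to -4.53 ± 0.97 (adjusted p = 0.0165) and -3.62 without WT 2. The call was lost without WT 1 (adjusted p = 0.056) and without any 1 of the KO libraries (adjusted p = 0.0627 to 0.0669, and 0.000131 to 0.0669 over all 17 alternatives). Fcgr3 shares 2.54% of its 100-base stretches with Fcgr2b, an inhibitory Fc receptor with 1.49 to 12.9 FPKM in WT and 0.0215 to 0.111 FPKM in KO (log2 fold change -2.53, adjusted p = 0.022, and 0.0544 in the fit with no filter).

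Lyz2 (ENSMUSG00000069516, chr10:117277331-117282321, minus strand) encodes lysozyme, which cuts bacterial cell walls and is made by monocytes, macrophages and neutrophils. It was the most abundant of the 10 genes in each WT library, with 1687, 4544 and 289 FPKM in WT 1, WT 2 and WT 3. KO 1, KO 2 and KO 3 had 2.53, 8.11 and 14.1 FPKM, from 62, 168 and 298 reads, so it stayed well detected. KO minus WT was -7.38 ± 1.06 on the log2 scale (adjusted p = 0.00379), the largest of the set, and it was -6.48 without WT 2 and -8.46 without WT 3. Its copy Lyz1 was at or under 0.741 FPKM in WT and had 0 reads in the KO libraries. Lyz2 shares 1.97% of its 100-base stretches with Lyz1.

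Mpeg1 (ENSMUSG00000046805, chr19:12460779-12465284, plus strand) encodes perforin-2, a pore-forming protein of the phagosome. It had 29.7, 31.1 and 7.52 FPKM in WT 1, WT 2 and WT 3 and 0.706, 0.762 and 0.415 FPKM in KO 1, KO 2 and KO 3. No WT library came near the KO range. Limma gave a log2 fold change of -3.65 ± 0.54 (adjusted p = 0.00425). Leaving out WT 2 made it -3.32, and leaving out WT 3 made it -4.28.

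Cd68 (ENSMUSG00000018774, chr11:69664213-69666153, minus strand) encodes macrosialin, a glycoprotein of the lysosome membrane. Its level was 16.7, 36.7 and 5.29 FPKM in WT 1, WT 2 and WT 3 and 3.33, 5.15 and 6.33 FPKM in KO 1, KO 2 and KO 3. WT 3 lay inside the KO range, and the KO libraries had 78 to 128 reads. Its log2 fold change of -1.48 did not pass the test (95% interval -3.03 to 0.07, adjusted p = 0.15). Without WT 3 it was -2.16 (adjusted p = 0.0209), with array weights, which give WT 2 little weight, -1.38 (adjusted p = 0.00648), and without WT 2 -0.86 (adjusted p = 0.168). Over all 17 alternatives the adjusted p ran from 0.00648 to 0.358, and 2 of them passed. Cd68 was the third most abundant of the 10 genes in KO 1 and KO 2 and the second in KO 3, but ranked seventh or eighth in the WT libraries.

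Among all genes tested, 13.3% were lower in KO at an adjusted p under 0.05, and 8 of the 9 members tested were. Csf1r, Fcgr3, Cd14, Spi1 and Mpeg1 were under 1 FPKM in every KO library, so they were tested because of their WT level and had to be lower in KO to be tested at all. In the fit with no filter, 8 of all 10 members were lower, against 6.41% of 28116 genes. Complete separation, with all WT libraries above all KO libraries, was seen for 9 of 10 members and for 18.1% of genes with any read. With WT 2 left out the members called were again 8, against 25.3% of genes, and without WT 3 they were 9 with Cd68 added, against 12.4%. In bulk RNA, fewer cells of a type and less RNA per cell cannot be told apart.

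**Figure D2:**
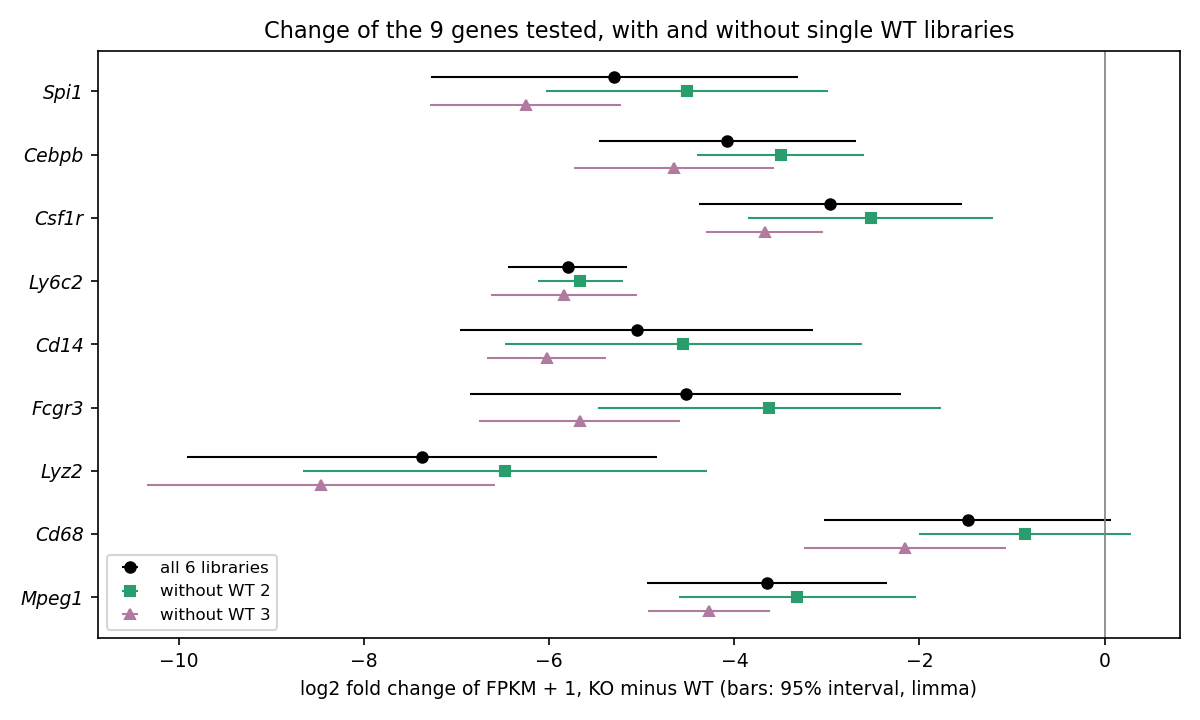
Log2 fold change of FPKM + 1, KO minus WT, with 95% intervals from limma for the 9 genes tested, using all 6 libraries, without WT 2 or without WT 3. All values lie below 0, the intervals of Cd68 with all libraries and without WT 2 cross 0, and Ly6c2 moves least between the fits.

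Together the 10 genes took 0.372% of reads in WT 1 (95% Wilson interval 0.369% to 0.375%), 0.538% in WT 2 (0.534% to 0.541%) and 0.141% in WT 3 (0.140% to 0.143%). In KO 1, KO 2 and KO 3 they took 0.00341% (0.00313% to 0.00371%), 0.00532% (0.00493% to 0.00573%) and 0.00646% (0.00605% to 0.0069%). These intervals cover counting error only. The order of the KO libraries was that of Lyz2, which gave 62 of the 545 member reads in KO 1 and 298 of the 900 in KO 3. The 9 members without Lyz2 kept this order, with 0.00302%, 0.00403% and 0.00432% in KO 1, KO 2 and KO 3. In WT 3 Ly6c2 gave 11995 of 20704 member reads, more than Lyz2 with 5893, whereas in WT 1 and WT 2 Lyz2 gave the most.

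The WT libraries spread further than the KO libraries for 9 of the 10 genes. WT 2 had the highest FPKM and WT 3 the lowest for Spi1, Cebpb, Csf1r, Adgre1, Cd14, Fcgr3, Lyz2, Cd68 and Mpeg1. Highest over lowest ranged from 4.14-fold for Mpeg1 to 20.0-fold for Fcgr3. For Ly6c2 it was 1.39-fold, and WT 1 was 0.921 times WT 3. The order of WT 1 and WT 2 depends on scaling: rescaled to TPM, which divides by the FPKM sum of each library, all 10 genes were lower in WT 2 than in WT 1, for Lyz2 by a small margin (5113 TPM in WT 1, 5064 in WT 2 and 944 in WT 3). On the TPM scale the 9 genes were still lowest in WT 3, and Ly6c2 was highest there with 923 TPM against 789 in WT 1 and 402 in WT 2.

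**Figure D3:**
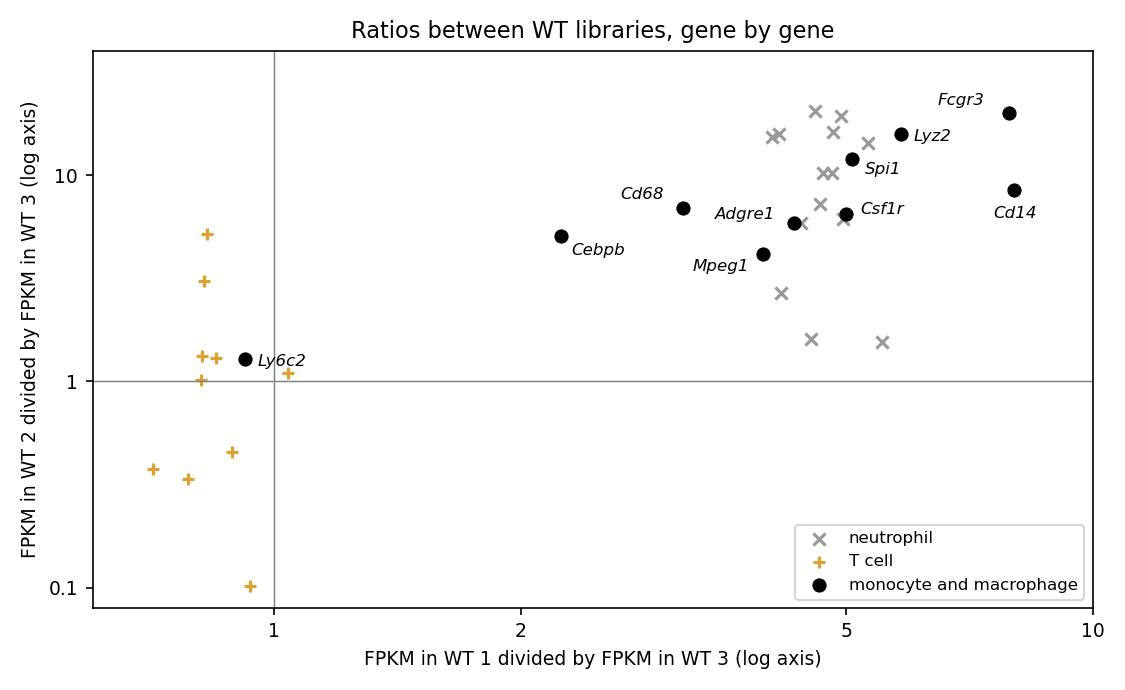
FPKM in WT 1 (x axis) and WT 2 (y axis), each divided by FPKM in WT 3, on log axes, for the 10 genes (black), 14 neutrophil genes (grey crosses) and 10 T cell genes (orange). Of the 10 genes, 9 lie at x from 2.24 to 8.01, on the side of the neutrophil genes, and Ly6c2 lies at x = 0.921 and y = 1.28 among the T cell genes.

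Over the 6 libraries each tested gene's log2 values were correlated with the mean profile of the other members, as a description. Pearson's r was 0.922 for Ly6c2 and 0.878 for Cd68, and between 0.988 and 0.998 for the other 7. Most of this is the step between groups that all share. Hlx, 5031439G07Rik, Mlkl and Fcnb were the protein-coding genes with the profile most like that of the members, out of those tested, each with r = 0.999. Fcnb encodes a ficolin, a pattern-binding protein of the innate immune system. Fcnb had 77.9, 202 and 17.8 FPKM in WT 1, WT 2 and WT 3 and 0.12, 0.379 and 0.649 FPKM in KO 1, KO 2 and KO 3.

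Markers of other blood cells moved with these genes. All 14 neutrophil genes were detected in all 6 libraries and all 14 were lower in KO, against 13.3% of all genes tested. Their median log2 fold change was -6.41. Their summed level was 34278, 96425 and 6972 FPKM in WT 1, WT 2 and WT 3 and 96.1, 276 and 295 FPKM in KO 1, KO 2 and KO 3, in the same order of FPKM across libraries as the summed level of the 10 members (2304, 5576 and 660.4 FPKM in WT, 15.0, 25.1 and 33.8 FPKM in KO). Lyz2, which neutrophils also make, gave 1687, 4544 and 289 FPKM of the members' sum in WT 1, WT 2 and WT 3. In TPM the members' sum was higher in WT 1 (6983) than in WT 2 (6214), and the neutrophil sum was lower in WT 1 (103906) than in WT 2 (107455). Ly6g, a defining neutrophil marker, had 71.6, 111 and 15.4 FPKM in WT and 0.114, 0.135 and 0.528 FPKM in KO, from 2, 2 and 8 reads. Like Cxcr2, it was under 1 FPKM in every KO library and was tested because of its WT level. In the fit with no filter all 14 neutrophil genes were again lower, against 6.41% of all genes. The part of neutrophil RNA in the levels of Lyz2, Spi1, Cebpb, Fcgr3 and Cd14 was not tested.

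Over all genes tested, 13.3% were lower in KO and 13.1% higher. Without WT 2, 3383 of 13393 were lower and 3584 higher. Of 8 B cell genes 4 were tested and 0 passed in either direction, while without WT 2 3 of the 4 were lower and 1 higher. Their sum was 1051 FPKM in WT 2 against 11.7 and 17.9 FPKM in WT 1 and WT 3 and 2.08 to 2.73 FPKM in KO. Erythroid genes summed to 68045 FPKM in WT 2 and to 16.9 to 525 FPKM elsewhere. Mast cell, basophil and eosinophil genes came to 4706 FPKM in WT 2, 290 FPKM in WT 1 and 27.7 FPKM in WT 3, against 1.68 to 2.49 FPKM in KO. WT 2 thus had the highest summed FPKM of each of these lineages. Of 8 NK cell genes 7 were tested, 6 were lower in KO and 1, the granzyme Gzma, was higher (median log2 fold change -3.61). Klrb1c, Klra8, Eomes and Klre1 were under 1 FPKM in every KO library and were tested because of their WT level. In the fit with no filter 6 of all 8 were lower and 1 higher, against 6.41% of all genes lower. All 8 summed to 509, 1172 and 521 FPKM in WT and to 608, 580.1 and 647 FPKM in KO, where Gzma alone had 566 to 615 FPKM. Among 10 T cell genes, Cd5 was lower and Bcl11b higher, no more than the shares over all genes. Without WT 2, 2 were lower and 4 higher. Without WT 3, 0 were lower and 1 higher, against 1661 and 1489 of 13393 genes. The T cell sum was 825 to 1216 FPKM in WT and 1091 to 1332 FPKM in KO, overlapping, but in TPM it was 1355 to 3137 in WT and 4350 to 5439 in KO, with no overlap. The part of these cells in the members' levels was not tested.

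**Figure D4:**
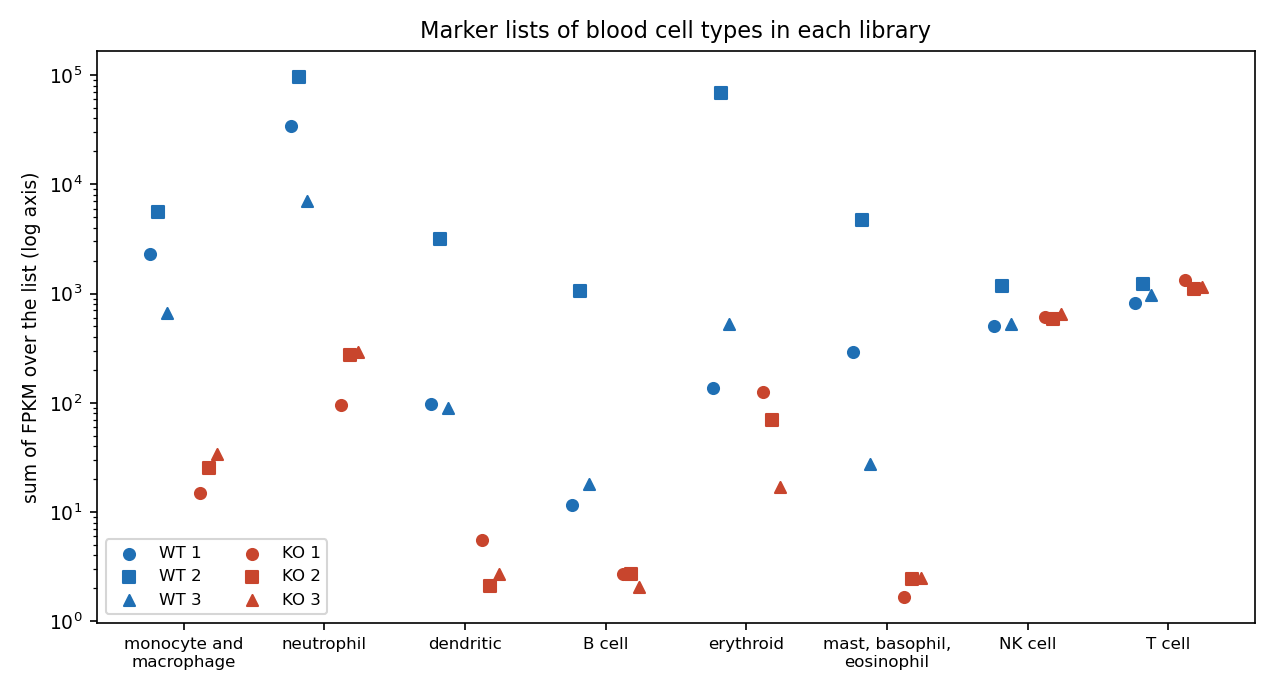
Sum of FPKM (log axis) over marker lists of 8 blood cell types in each library, blue for WT and red for KO, with the marker shape giving the replicate number. In FPKM the monocyte and macrophage sum orders the libraries as the neutrophil sum does, though not in TPM. Its largest part in each WT library was Lyz2, and it ran from 660.4 to 5576 FPKM in WT and from 15.0 to 33.8 FPKM in KO. The T cell sum overlaps between groups on this scale, from 825 to 1216 FPKM in WT and from 1091 to 1332 FPKM in KO, though not in TPM.

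Beyond the 10, a wider set of 52 genes of mononuclear phagocytes was read in 7 lists by role. Of these, 39 were tested, 28 were lower in KO and 1, Ly6c1, was higher, with a median log2 fold change of -2.58. The median over all genes tested was 0.086, with 13.3% of genes lower and 13.1% higher. In the fit with no filter, which takes every gene with any read, 27 of all 52 were lower and 1 higher. There 6.41% of all genes were lower. Without WT 2, 32 of the 39 were lower and 1 higher, against 25.3% of all genes lower. When any 1 KO library was left out, 16 to 18 of the set passed in place of 29. Over all genes, 1934 to 2071 then passed in place of 3539.

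Of the colony-stimulating factor genes, 3 of 4 were lower with or without the filter on low values, with a median of -4.52 over the 3 that met it. Csf2rb and Csf3r were under 1 FPKM in every KO library and met it through WT. Csf2ra, the α chain of the GM-CSF receptor, had 108, 63.1 and 26.9 FPKM in WT and 1.28, 1.41 and 1.98 FPKM in KO (log2 fold change -4.52, adjusted p = 0.00155). Csf3r, the receptor of the neutrophil growth factor G-CSF, had 124, 65.5 and 19.2 FPKM in WT and 0.119, 0.37 and 0.929 FPKM in KO (-5.27, adjusted p = 0.00237). Both were highest in WT 1 in FPKM, where Csf1r was highest in WT 2, but in TPM Csf1r was also highest in WT 1 (37.2 against 17.8 in WT 2). The ligand Csf1 was at 0.819 to 8.63 FPKM in WT and under 0.061 FPKM in KO and was not tested.

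Of 8 myeloid transcription factors, 5 were lower and 0 higher with or without the filter, with a median of -2.58 over the 7 that met it. Cebpd, a C/EBP family member, had 14.4, 26.4 and 3.50 FPKM in WT and 0.229, 0.305 and 0.547 FPKM in KO (-3.19, adjusted p = 0.0129). Klf4, which takes part in monocyte differentiation, had another pattern, with 32.2, 17.6 and 55.9 FPKM in WT and 6.30, 6.48 and 6.19 FPKM in KO (-2.16, adjusted p = 0.0112). In TPM its WT 2 level, 19.6, was below the KO range of 24.1 to 25.8. WT 3 was the highest library for Klf4 and also for Nr4a1, a factor of patrolling monocytes that is also switched on by antigen receptor signals. Irf8, a factor of monocyte and dendritic cell fate, did not pass (-2.28, adjusted p = 0.0551).

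Of 5 Fc receptors and signalling adaptors, 3 were lower in the fit with no filter, and 4 of the 4 that met the filter were, Fcgr2b among them through its WT level, with a median of -3.80. Tyrobp (DAP12), an adaptor of many myeloid and NK receptors, fell from 254, 1072 and 57.8 FPKM in WT to 6.12, 8.09 and 7.17 FPKM in KO (-4.96, adjusted p = 0.012). Fcgr4, an activating receptor of monocytes and neutrophils, had 19.3, 13.5 and 6.21 FPKM in WT and 0.556, 1.21 and 0.396 FPKM in KO (-2.93, adjusted p = 0.0042).

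Genes of microbial sensing split. Clec7a, the β-glucan receptor Dectin-1, had 2.71 to 21.2 FPKM in WT and at most 0.236 FPKM in KO (-3.45, adjusted p = 0.0137). Myd88, the shared adaptor of Toll-like receptors, had 28.4, 36.4 and 18.6 FPKM in WT and 8.40, 9.25 and 7.38 FPKM in KO (-1.58, adjusted p = 0.0104). In all, 3 of 6 were lower with or without the filter. Ly96 and Tlr7 did not pass, with 1.21 to 3.33 and 2.86 to 4.33 FPKM in WT and 0.791 to 1.79 and 2.44 to 3.93 FPKM in KO.

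Among 8 genes of blood monocytes, 5 were lower and 1 higher, with a median of -1.84. Ccr2, the chemokine receptor by which monocytes leave the marrow, had 20.2, 24.2 and 9.51 FPKM in WT and 1.25, 0.846 and 1.06 FPKM in KO (-3.12, adjusted p = 0.00201). Fn1, fibronectin, had 25.0, 10.3 and 5.98 FPKM in WT and 0.193, 0.223 and 0.202 FPKM in KO (-3.40, adjusted p = 0.00355). The gene that was higher was Ly6c1, described above. F13a1, the coagulation factor XIII chain of monocytes and platelets, overlapped between groups, with 19.4, 13.3 and 3.34 FPKM in WT and 4.95, 6.81 and 5.32 FPKM in KO.

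Most markers of resident tissue macrophages were scarce in both groups, with the complement chains C1qa and C1qb in WT 2 as the exception. Mertk, Cd163, Mrc1, Msr1, Siglec1, Spic and Timd4 were below 0.689 FPKM in all 6 libraries and none met the filter. Of the 5 that did, 3 were lower, each under 1 FPKM in every KO library: Axl, a receptor for dying cells (-1.02, adjusted p = 0.0138), Vcam1, an adhesion molecule (-1.29, adjusted p = 0.0132), and C1qc, a complement chain (-1.56, adjusted p = 0.0424). C1qa had 2.37, 33.0 and 4.22 FPKM in WT 1, WT 2 and WT 3 and 0.358 to 1.16 FPKM in KO, and C1qb had 2.44, 24.2 and 3.91 FPKM in WT and 0.342 to 1.34 FPKM in KO. Neither passed (adjusted p = 0.103 and 0.0933). In the fit with no filter Axl and C1qc lost the call (adjusted p = 0.0549 and 0.0958), Vcam1 kept it, and 3 of 12 genes were lower, with Mrc1 and Cd163 added.

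Of 9 lysosome and oxidase genes, 5 were lower with or without the filter, with a median of -4.30 over the 7 that met it. Cybb, the catalytic oxidase subunit gp91phox, had 121, 50.5 and 27.8 FPKM in WT and 0.582, 1.11 and 1.11 FPKM in KO (-4.88, adjusted p = 0.0014). Ctss, cathepsin S, had 70.7, 105 and 57.6 FPKM in WT and 6.84, 4.82 and 2.84 FPKM in KO (-3.77, adjusted p = 0.000982). Cathepsins B and D, used by most cells, did not pass, with Ctsb at 17.9 to 46.6 FPKM in WT and 14.4 to 18.2 FPKM in KO. Ctsd had 118, 603 and 95.8 FPKM in WT and 60.1 to 75.2 FPKM in KO, without overlap (-1.54, adjusted p = 0.166). Cd68, another lysosomal gene, did not pass either.

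**Figure D5:**
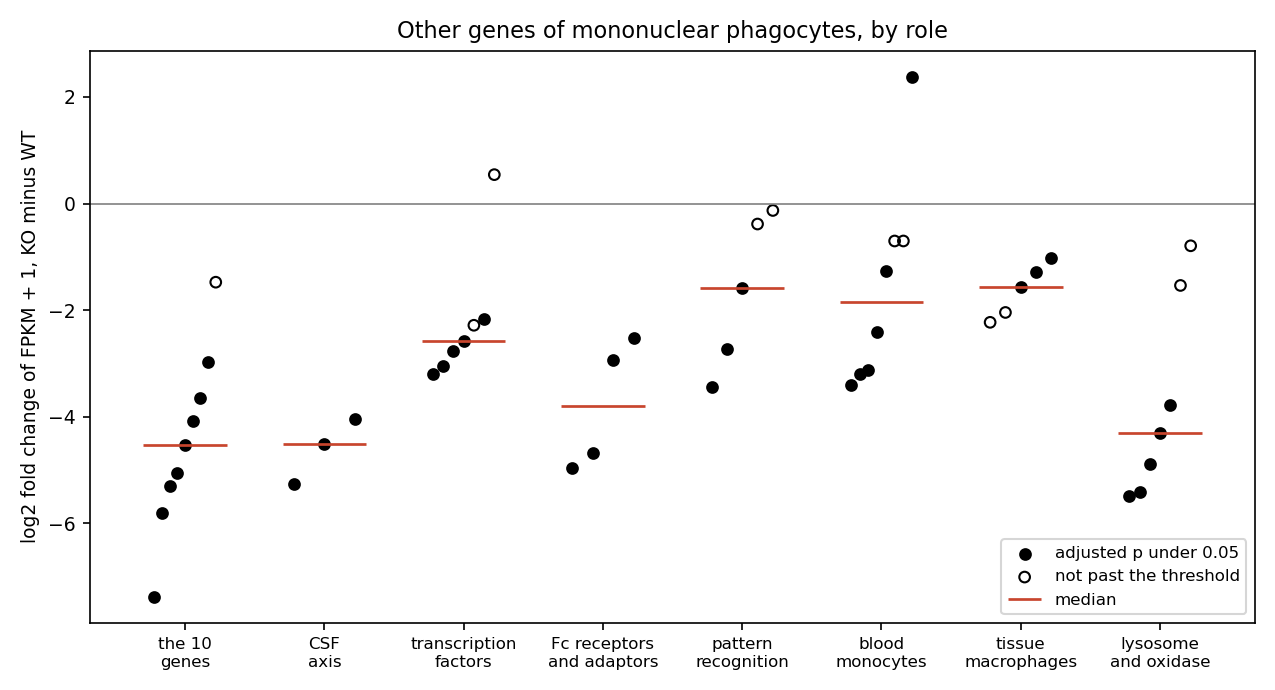
Log2 fold change of FPKM + 1, KO minus WT, for the tested genes among the 10 and in each of 7 role lists. Filled points passed an adjusted p of 0.05 (limma), open points did not, and red bars are medians, from -4.53 for the 10 genes to -1.56 for tissue macrophage genes, with Ly6c1 as the 1 filled point above 0.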

How the data were processed

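RNA from BM was sequenced by the authors on an Illumina NovaSeq instrument after NEBNext library preparation. The submitters' processing notes name HISAT2 2.0.5, featureCounts 1.5.0-p3 and GRCm38/mm10. The deposited unit is FPKM per gene. FPKM times gene length gave whole reads for 100% of values in each library (tolerance 0.01), and the FPKM carried a median-of-ratios type scaling, since median-of-ratios factors were equal in all 6 libraries. The study tested counts; here genes with at least 1 FPKM in at least 3 libraries were tested on log2(FPKM + 1), a scale that understates changes of low genes, with limma 3.58.1 (trend, two-sided, Benjamini-Hochberg over all genes) in R 4.3.3. An exact permutation test of 3 against 3 cannot go under p = 0.1. The model was tested on simulated data. Sequences were aligned with Biopython 1.88, and Python 3.11.15 was used with SciPy 1.17.1, pandas 2.3.3, Matplotlib 3.10.9 and NumPy 2.4.6.

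The 10 members and the lists were chosen with earlier results of these data known. Named genes are the members, the 2 genes of lowest p in each role list, any that moved against its list, close copies, Phf6, Cd3e and the 5 genes most like the members; others were named after their values were seen. Some results that this rule would name are not reported here. Gene coordinates are those of the deposited table and equal GENCODE M21 on GRCm38 for 53462 of 54532 genes and 7 of the 10 members. Promoters are the first RefSeq entry per gene, 250 bases before to 50 after the start. The main fit did not pair libraries by replicate number. Correlations of deviations of same-numbered libraries were 0.0954, 0.105 and -0.153, which with 3 libraries per group cannot exclude a pairing. Ratios of means and list counts without WT 2 or WT 3 and sums in TPM were added after seeing the data. Alternatives were other pseudocounts, filters, scalings, weights and thresholds, voom on recovered reads, a replicate block and leaving out each library.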

Additional observations from a re-analysis of the deposited data

How the results depend on the processing

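None of the 9 members tested changed direction under any alternative run. Spi1, Cebpb, Ly6c2, Cd14, Lyz2 and Mpeg1 passed under all 17 other fits, with adjusted p from 3.86e-07 to 0.0298, and the number of members past the threshold ran from 6 to 9 when 1 library was left out and was 6 at a threshold of 0.01. For the wider set of 52 genes, 29 passed, 14 did at a threshold of 0.01, and 16 to 33 did when 1 library was left out. Of all genes, 3539 passed, 8461 with array weights, 1837 with a mean FPKM of at least 5, 1812 at a threshold of 0.01, and 1934 to 6967 without 1 library, the highest without WT 2. With ribosomal protein and haemoglobin genes left out of the total, the members' share of reads was 0.396%, 0.75% and 0.154% in WT 1, WT 2 and WT 3. GAGGAA in place of GAGGAAGT was found in 3 promoters, a looser string by construction. Rescaling to TPM moved the median over all genes from 0.086 to 0.857 (log2), and higher genes made up 67.8% of calls in place of 49.6%; with voom these were 0.561 and 60.2%. The replicate block left 8 members, 29 genes of the wider set and 2676 of all genes past the threshold, and 1 of 3 WT libraries correlated best with the KO library of its own number. The cause of these differences was not tested. Depth limits Csf1r, Adgre1, Cd14, Fcgr3 and Spi1 in KO, each at 5 to 19 reads per library.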

Other observations

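Dendritic cell genes were read beside the monocyte genes because both lineages share precursors. Of 9 genes, 4 met the filter on low values, and all 4 were lower in KO, also without WT 2. Over all genes tested, 13.3% were lower, and 25.3% without WT 2. In the fit with no filter 2 of 9 were lower, Itgax and Zbtb46, against 6.41% of all genes. There Zbtb46 had a log2 fold change of -0.17, from 12, 18 and 17 reads in WT and 2, 0 and 0 reads in KO. The class II genes H2-Aa, H2-Ab1 and Cd74 did not pass in that fit (adjusted p = 0.0874, 0.0733 and 0.057). H2-Aa had 303 FPKM in WT 2 against 12.3 and 7.95 FPKM in WT 1 and WT 3, and 0.0663 to 1.00 FPKM in KO. Itgax, the integrin CD11c, had 14.9, 8.57 and 20.8 FPKM in WT and 0.168, 0.172 and 0.259 FPKM in KO (log2 fold change -3.64, limma adjusted p = 0.000857). It was highest in WT 3, where 9 of the 10 monocyte and macrophage genes were lowest. Siglech, a marker of plasmacytoid dendritic cells, had 15.9 FPKM in WT 2, at most 0.383 FPKM in the other WT libraries and 0 reads in the KO libraries. Platelet genes summed to 60.1 FPKM in WT 2, 5.97 and 5.20 FPKM in WT 1 and WT 3, and 0.405 to 0.784 FPKM in KO. Of these, 0 of the 2 tested passed, while without WT 2 both were lower and without WT 3 1 was. Over all genes, 25.3% were lower without WT 2 and 12.4% without WT 3.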
